A study of Homo sapiens with 6 samples.

Results

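Distal SMARCA4 peaks that lie close together were described in K562 cells, an established human line from chronic myeloid leukaemia. Members were chosen by position in the deposited list of 28265 peaks. A peak was called distal when its midpoint lay more than 1 kb from every GENCODE transcript start, which 14352 peaks did (50.8%). Distal peaks at most 500 bp apart were merged and merged peaks at most 12500 bp apart were stitched into loci. A locus of 5 or more merged distal peaks was called a cluster. The rule gave 112 clusters with 764 member peaks, or 5.32% of the distal peaks. The remaining 13588 distal peaks served for comparison.

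The list rests on 3 ChIP libraries with the antibody to SMARCA4 and 3 input libraries, from cells fixed with 2 mM DSG and then 1% formaldehyde. A region entered it when 2 or more of the 3 replicates had it, and each has a start and an end. Read counts and peak heights were not in it, so no value here has a replicate error. The study calls the replicates biological while the series text calls them technical, and the description label of the ChIP libraries names another target, G4.

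SMARCA4, also called BRG1, is an ATPase of the SWI/SNF complexes, which move or evict nucleosomes at promoters and enhancers. Stretches of densely spaced enhancers, often called super-enhancers, are known for lying near genes that define a cell type, and in erythroid cells for sites of GATA1 and its partner factors. Transfer RNA genes are a different kind of element: RNA polymerase III transcribes them from a promoter inside the gene, made of an A box and a B box.

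The 4 sequences that follow were picked for their GATA and AP-1 letters and do not stand for the typical member peak. For 4 of the 6 clusters with most merged peaks, the central 200 bp of a peak with most GATA and AP-1 matches are given. In the H4C8 and EED clusters another peak had as many matches. The plus strand of hg19 is shown, with matches in capitals on either strand: for GATA factors AGATAA or AGATAG or TGATAA or TGATAG, and for AP-1 TGACTCA or TGAGTCA. Clusters are called by the nearest coding gene, and one by PDE4DIP, the gene it lies in. They come from chr6:26312399-26312598, chr11:85894162-85894361, chr1:145028689-145028888 and chr6:147219253-147219452, in this order. The EED window has 2 GATA matches and 1 AP-1 match, and the ADGB window 4 GATA matches with no AP-1 match.
H4C8 cluster: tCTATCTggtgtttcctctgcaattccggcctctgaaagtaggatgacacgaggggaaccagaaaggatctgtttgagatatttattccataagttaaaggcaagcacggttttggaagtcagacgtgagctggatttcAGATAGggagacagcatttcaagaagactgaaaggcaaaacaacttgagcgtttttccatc
EED cluster: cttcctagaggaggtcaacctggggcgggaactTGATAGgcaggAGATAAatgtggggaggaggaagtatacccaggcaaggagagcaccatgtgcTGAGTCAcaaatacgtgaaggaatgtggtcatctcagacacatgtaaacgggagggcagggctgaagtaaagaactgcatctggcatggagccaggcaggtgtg
PDE4DIP cluster: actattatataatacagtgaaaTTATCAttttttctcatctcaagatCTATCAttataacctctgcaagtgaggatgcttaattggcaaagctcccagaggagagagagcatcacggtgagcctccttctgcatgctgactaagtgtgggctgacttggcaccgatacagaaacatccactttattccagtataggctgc
ADGB cluster: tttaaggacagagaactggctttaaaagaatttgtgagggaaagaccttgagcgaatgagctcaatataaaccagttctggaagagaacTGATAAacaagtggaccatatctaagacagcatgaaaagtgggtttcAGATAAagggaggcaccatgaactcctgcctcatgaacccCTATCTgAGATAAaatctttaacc

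In several clusters, member peaks, that of the H4C8 window among them, lay within 100 bp of a sequence of another kind. It is shown for the SCAND3 and HMGN4 clusters as 100 bases on the strand that carries it; the HMGN4 stretch lies mostly just before its peak. Capitals mark the A box and the B box. The A box was searched by its consensus and the B box as GGTTCGANCCC or GGTTCGANTCC, starting 25 to 60 bases after the A box, on both strands. These stretches lie at chr6:28726143-28726242 (minus strand) and chr6:26553701-26553800 (plus strand) of hg19. This pair was looked for after the positions of the clusters had been seen.
SCAND3 cluster, A and B box: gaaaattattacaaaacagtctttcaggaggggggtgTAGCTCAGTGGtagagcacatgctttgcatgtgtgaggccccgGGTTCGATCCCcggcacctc
HMGN4 cluster, A and B box: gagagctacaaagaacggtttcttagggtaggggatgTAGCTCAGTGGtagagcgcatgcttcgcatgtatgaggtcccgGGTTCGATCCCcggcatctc

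Clusters were the sparse tail of the stitched loci. Of 9821 loci, 7510 held 1 merged peak, 1558 held 2, 469 held 3 and 172 held 4. Among the clusters, 67 held 5 merged peaks and 24 held 6, and the largest held 13. Just inside the limit, the 67 loci of 5 merged peaks had 379 peaks, a median span of 21.7 kb and a median peak width of 412 bp. Just outside it, the 172 loci of 4 had 778 peaks, a median span of 16.6 kb and a median width of 364 bp. No break in the counts set the clusters apart from the loci below the limit.

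**Figure D1:**
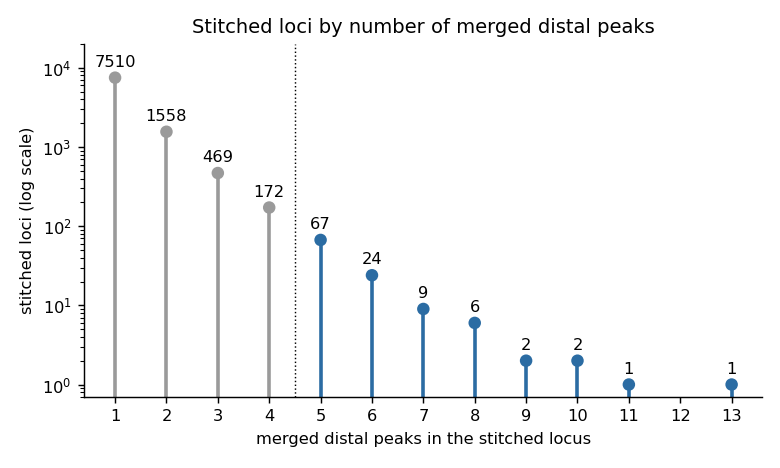
Number of stitched loci (log scale) against the number of merged distal peaks in the locus. Blue points to the right of the dotted line are the 112 clusters, and counts fall from 7510 loci with 1 merged peak to 1 locus with 13.

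A typical cluster was a row of narrow peaks with much uncovered sequence between them. The median span was 25.5 kb (range 8.28 to 68.0), with 6 peaks (5 to 22) that together covered 3128 bp (898 to 10869). Peaks filled 12.2% of the span in the median cluster and at most 34.1%. The median gap between merged peaks, taken per cluster, had a median of 4207 bp. Member peaks had a median width of 393.5 bp (quartiles 236 and 604), against 339 bp (231 and 514) for other distal peaks. Peaks of at least 1000 bp were 8.38% of members and 3.27% of other distal peaks. Since spacing and width come from the same peak calls that chose the members, these figures are a description and were not tested.

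The cluster with most merged peaks lay on chromosome 6 between SCAND3 and TRIM27 (chr6:28677747-28740548). It had 13 merged peaks from 22 peaks over 62.8 kb and overlapped no coding gene, and the start of SCAND3 was 93758 bp away. GATA letters were in 6 of its 22 peaks and AP-1 letters in 4. Here and below, motif letters were counted in the central 200 bp of each peak unless stated otherwise. The next cluster of the same interval, called the TRIM27 cluster here, began 16190 bp further on (chr6:28756739-28785181). It had 9 peaks, of which 3 held GATA and 0 AP-1. Both stand in a stretch with no coding gene start.

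The histone gene region of the same chromosome held the cluster with the longest span and most covered bases (chr6:26284117-26352108), around H4C8, a gene for histone H4. It had 11 merged peaks from 13 peaks over 68.0 kb and covered 10869 bp. Its peaks included one of 2290 bp, and 5 further peaks in the span lay within 1 kb of transcript starts. The HMGN4 cluster (chr6:26553450-26577356), near a gene for a nucleosome-binding protein, had 7 merged peaks with 24.99% of the span covered. A cluster 10512 bp from H2BC13, a histone H2B gene, had 8 merged peaks in 24.9 kb (chr6:27740287-27765195).

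In all, chromosome 6 carried 23 of the 112 clusters (20.5%) and 189 member peaks, while 8.12% of all distal peaks lay on it. Between 26 and 29 Mb of that chromosome there were 11 clusters with 104 member peaks, which is 13.6% of all members (95% Wilson interval 11.4 to 16.2), beside 1.31% of all distal peaks. All Wilson intervals in this report treat peaks as independent, although peaks of a cluster share a locus. Members were chosen by close spacing, and the stretch from 26 to 29 Mb after seeing the data. The shares are thus a description and were not tested. Chromosome 1 had 15 clusters (13.4%) with 12.4% of the distal peaks, and chromosome 19 had 8. The copy number of these chromosomes in K562 was not analysed here.

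Other large clusters lay at or near coding genes of varied function. The LRRC25 cluster overlapped GDF15, a secreted factor of the TGF-beta family, as well as LRRC25 and SSBP4, with 10 merged peaks over 51.0 kb (chr19:18489174-18540124). The RTN4 cluster, at a gene for a protein that shapes the endoplasmic reticulum, had 8 merged peaks over 34.9 kb. The CMBL cluster had 8 over 39.9 kb, PDIK1L 7 over 50.5 kb and PCBP1, which encodes an RNA-binding protein, 7 over 38.8 kb. In each of these, at least 1 further peak of the span lay within 1 kb of a transcript start.

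PIM1, a serine/threonine kinase gene that cytokine signalling induces, stood in a pair of neighbouring clusters. The PIM1 cluster had 8 peaks over 31.0 kb (chr6:37114554-37145591), 5 of them with GATA and 0 with AP-1. The cluster after it, 13823 bp away and nearest to TBC1D22B, had 8 peaks over 52.6 kb, 3 with GATA and 1 with AP-1. In all, 6 clusters lay within 25 kb of another, the SCAND3 and TRIM27 clusters among them.

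Other dense clusters held no start of a coding gene. The EED cluster stood 17870 bp from EED, which encodes a subunit of Polycomb repressive complex 2, and had GATA letters in 11 of 12 peaks (chr11:85845758-85894384). The ADGB cluster had 13 peaks in 22.4 kb and lay 277203 bp from the nearest coding start (chr6:147197306-147219668). GATA was in 6 of its 13 peaks. The PDE4DIP cluster lay inside a gene for a centrosome and Golgi protein, with 12 of 12 peaks in the gene and AP-1 in 0 (chr1:144991984-145030541). The nearest coding start, that of another gene, was 2675 bp from it. In its span, 2 further peaks lay within 1 kb of a transcript start.

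The widest member peak, 2370 bp, was in a cluster inside DLGAP1, nearest to the start of TGIF1 173438 bp away. The share of bases in peaks was highest, 34.1%, in a cluster near the olfactory receptor gene OR4D9 (chr11:59304552-59325499), with 6 peaks and 7137 bp covered. GATA and AP-1 letters were in the central 200 bp of 0 of these 6 peaks. The widest of them, 2221 bp, extends far past that window. The cluster is 1 of the 5 with most covered bases, all of which held a member peak near an A box and B box pair.

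**Figure D2:**
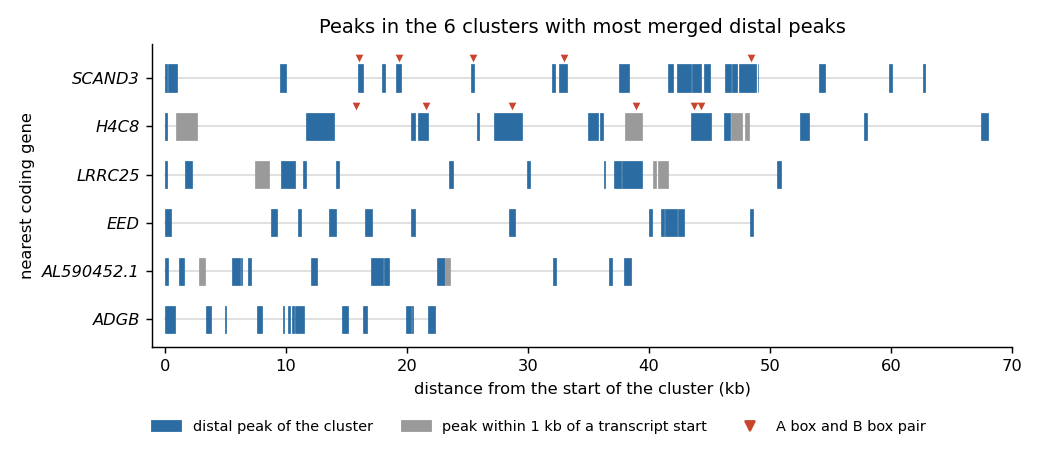
Peaks of the 6 clusters with most merged distal peaks, by distance in kb from the start of each cluster, drawn to scale on the rows named by the nearest coding gene. The row of the PDE4DIP cluster bears the name of another gene, the one with the nearest start. Blue bars are member peaks, grey bars are peaks within 1 kb of a transcript start, and red triangles are A box and B box pairs, which occur in the SCAND3 and H4C8 rows.

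Relative to coding genes, 74 of the 112 clusters overlapped at least 1 (66.1%), and 35 held a coding gene start in the span (31.2%). The median distance from the edge of a cluster to the nearest coding start was 12.9 kb where a start inside counts as 0, and 23 clusters lay over 50 kb away. The farthest was 832823 bp from MAT2B. Of the member peaks, 42.1% lay inside coding genes (322 of 764, 95% Wilson interval 38.7 to 45.7), against 53.6% of other distal peaks. The share of members depended on the rule: it was 28.7% with stitching at 5 kb and 21.0% with a minimum of 8 merged peaks, but 49.3% with stitching at 20 kb. In alternatives chosen after seeing the data it was 47.8% without clusters with an A box and B box pair and 47.7% without 26 to 29 Mb of chromosome 6. Exons of coding genes held 4.71% of members and 4.504% of other distal peaks. In 46 clusters (41.1%) at least 1 further SMARCA4 peak of the span lay within 1 kb of a transcript start, 106 peaks in all, so these spans were not free of promoters.

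Genes of the blood lineage lists were looked up at the clusters. Of 28 haematopoietic transcription factor genes, NFE2 and GFI1B did (7.14%), while 148 of 20136 coding genes did (0.735%). NFE2, a subunit of an erythroid and megakaryocytic activator, lay in a cluster of 6 peaks whose span also held 12 peaks near transcript starts (chr12:54671674-54701258), with GATA in 2 peaks. GFI1B, a repressor needed for red cells and platelets, overlapped a cluster of 5 peaks that ended 25849 bp before the start of GTF3C5 (chr9:135859396-135880213), also with GATA in 2. PIM1 was the gene found among 16 of BCR-ABL1 and cytokine signalling. None of 10 globin genes, 23 red cell haem, iron and membrane genes, 14 megakaryocyte and platelet genes or 15 AP-1 factor genes lay at a cluster. The 16 lymphoid and 12 liver genes, listed as other cell types, gave 0 as well.

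A wider limit was chosen after these counts were seen. Within 100 kb of a cluster lay the starts of 422 coding genes (2.096%). From the lists this added MYB, a progenitor transcription factor, 70.6 kb from a cluster nearest to HBS1L with 8 peaks, 6 of them with GATA (chr6:135395055-135431854). It also added JUND, an AP-1 factor, 96.7 kb from the LRRC25 cluster, and MCL1, a survival factor of the BCL2 family, 25.01 kb from a cluster near ENSA. Globin genes and red cell haem, iron and membrane genes stayed at 0. These list counts are too small to compare with the coding genes, and no test was made.

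Sequence letters did not enter the rule, so motif content could be tested. Each of 11 motif measures in the central 200 bp was compared between members and other distal peaks by logistic regression with errors clustered by stitched locus, two-sided, with Benjamini-Hochberg adjustment over the 11. CRE was fitted in 13 alternatives and CTCF in 14, and adjustment in each alternative ran over the motifs fitted there. Windows of peaks narrower than 200 bp, 16.0% of members and 16.7% of other distal peaks, reach past the peak. GATA letters were in the windows of 388 of 764 member peaks (50.8%) and of 8485 of 13588 other distal peaks (62.4%). The odds ratio was 0.621 (95% interval 0.521 to 0.739, n = 764 member peaks, adjusted p = 8.85e-07), a difference of -11.7 percentage points (-16.0 to -7.32). Clustered peaks thus held this erythroid motif less often than distal peaks elsewhere. The call was lost with stitching at 5 kb (odds ratio 0.753, n = 80 member peaks, adjusted p = 0.642) and with a minimum of 8 merged peaks (0.652, n = 138, adjusted p = 0.534), where 12 clusters remain; over 15 alternatives the adjusted p ran from 1.21e-14 to 0.642.

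AP-1 letters were in 104 member peaks (13.6%) and in 19.5% of other distal peaks, with an odds ratio of 0.652 (0.522 to 0.815, n = 764, adjusted p = 0.000604). GATA and AP-1 in the same window were found in 46 member peaks (6.02%) and in 10.98% of the others, an odds ratio of 0.519 (0.388 to 0.695, n = 764, adjusted p = 5.45e-05). Both were thus less frequent in clusters too. With a minimum of 8 merged peaks both calls were lost (odds ratios 0.799 and 0.792, n = 138 member peaks, each with adjusted p = 0.713), and stitching at 5 kb moved the odds ratios to 0.164 and 0.213. Over 15 alternatives the adjusted p ran from 1.15e-07 to 0.713 for AP-1 and from 3.82e-09 to 0.713 for the pair.

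The SP motif GGGCGG, which SP and KLF factors bind at many GC-rich promoters, went the other way. It was in 101 member peaks (13.2%) and 9.78% of other distal peaks, with an odds ratio of 1.41 (1.06 to 1.86, n = 764, adjusted p = 0.0468). The call was narrow: it was lost in 5 of 15 alternatives, with stitching at 5 kb among them, where the odds ratio was 0.866, and the adjusted p ran from 0.000811 to 0.865. CCNCNCCC, the KLF motif, was in 28.0% of members and 24.8% of others (odds ratio 1.18, 0.979 to 1.43, n = 764, adjusted p = 0.149). It can overlap an SP match. KLF passed in 4 of 15 alternatives (odds ratios 1.21 to 1.31) and turned to 0.811 with stitching at 5 kb. GC content of the window averaged 48.7% in members and 48.1% in others, a difference of 0.648 points (-0.627 to 1.92, n = 764, p = 0.319). Of 13 alternatives, GC content passed in 3 (1.39 to 1.54 points) and turned below 0 in 3 (-1.25 with stitching at 5 kb, -1.13 with a minimum of 8 merged peaks and -0.109 with 2.5 kb from transcript starts).

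The other motifs did not pass under the main rule. CTCF, the insulator protein, was searched by its core letters, found in 12 member peaks (1.57%) and in 2.97% of others (odds ratio 0.522, 0.284 to 0.960, n = 764, adjusted p = 0.0805). CAGCTG, an E-box, was in 13.9% of members and 16.1% of others (odds ratio 0.838, 0.679 to 1.03). In alternatives the E-box passed with stitching at 5 kb (0.424), and CTCF passed without merging (0.550) and against peaks that stitch to no other (0.470). TGTGGT, the RUNX letters, were in 15.4% and 15.1% (1.03, 0.817 to 1.29), and CCGGAA, the ETS letters, in 3.66% and 3.70% (0.990, 0.668 to 1.47); of 15 alternatives each, RUNX turned to the other side of 1 in 7 and ETS in 10. The G-quadruplex motif, 4 runs of at least 3 G with loops of 1 to 7 bases, was in 39 member peaks (5.10%) and 4.81% of others (1.06, 0.737 to 1.54); it passed without merging (1.43) and turned to 0.739 with a minimum of 8 merged peaks. TGACGTCA, the CRE, was in 1 member peak and 39 others. A p that misses the threshold does not show that shares are equal, and the interval for the CRE, 0.0629 to 3.30, leaves little to read.

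**Figure D3:**
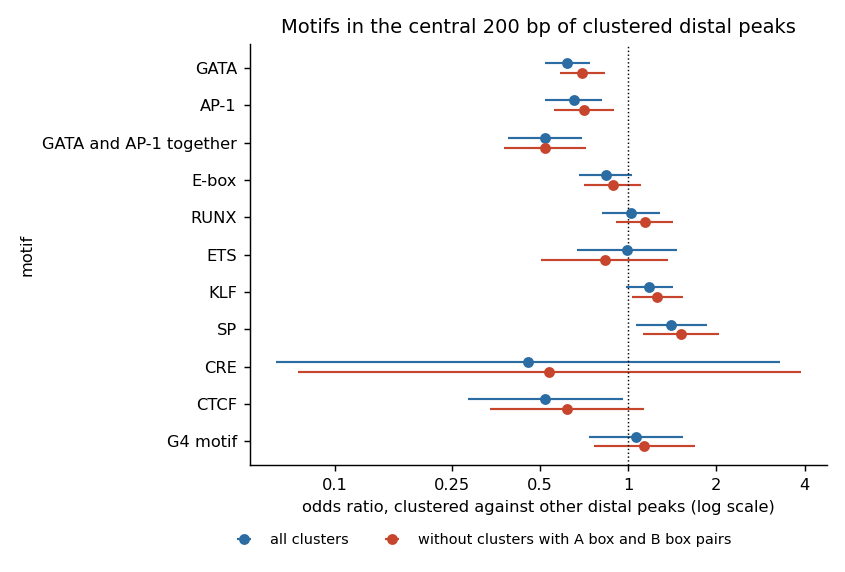
Odds ratio (log scale) of holding each motif in the central 200 bp, member peaks against other distal peaks, with 95% intervals from errors clustered by locus. Blue points use all 112 clusters and red points leave out the 12 with an A box and B box pair at a member peak; the GATA, AP-1 and combined intervals lie below 1 in both.

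Up to the limit, the shares moved with the size of the locus. GATA letters were in 64.2% of peaks in loci of 1 merged peak, 62.7% in loci of 2, 56.6% in loci of 3, 54.6% in loci of 4 and 50.8% in clusters. AP-1 letters went from 20.4% over 19.6%, 16.0% and 15.8% to 13.6%. SP letters rose from 9.43% over 9.91%, 10.4% and 11.6% to 13.2%. Peaks in loci just below the limit were thus between peaks that stand alone and members. Among clusters the shares followed no such order: GATA letters were in 53.8%, 47.4%, 41.9% and 51.9% of peaks in loci of 5, 6, 7 and 8 merged peaks and AP-1 letters in 14.2%, 10.98%, 12.2% and 18.5%. The sizes from 9 to 13, with 13 to 25 peaks each, ranged from 27.3% to 66.7% for GATA and from 4% to 25% for AP-1. None of this was tested.

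**Figure D4:**
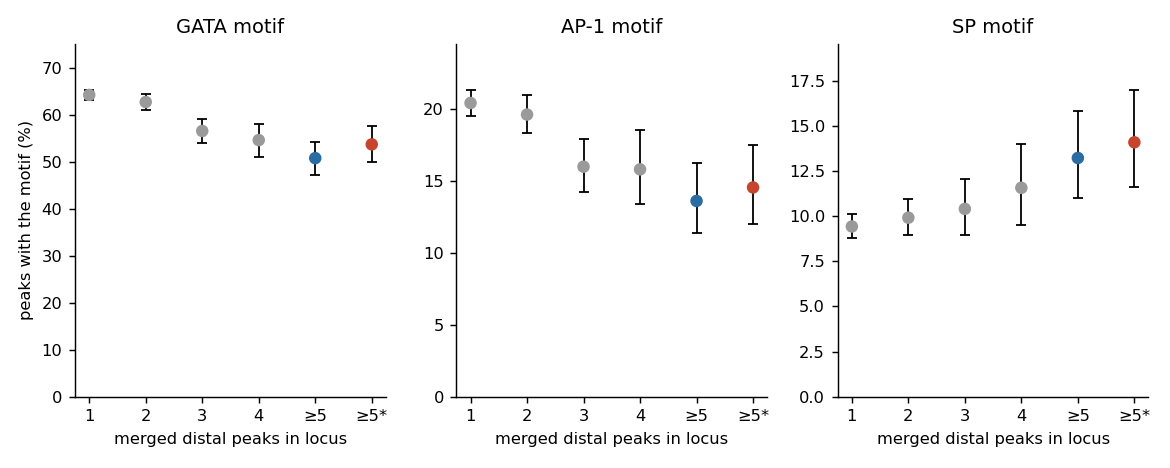
Percent of distal peaks with GATA, AP-1 and SP letters in the central 200 bp, by number of merged distal peaks in the locus, with 95% Wilson intervals. Blue is all clusters (764 peaks) and red, marked with an asterisk, is clusters without an A box and B box pair (646 peaks); GATA falls from 64.2% to 50.8%.

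Shares of these letters per cluster covered a wide range. The median cluster held 6 peaks, so a share per cluster is coarse. Whether the spread exceeds that of equal clusters of this size was not tested. The share of peaks with GATA had a median of 55.6% per cluster, with quartiles of 37.5% and 66.7%. Every peak held GATA in its central 200 bp in 5 clusters. After their values were seen, these were named as those near RHOBTB1, FOXO3, CALML5, CCNL1 and TRANK1. No peak held it there in 3 clusters, near OR4D9, OR1F1 and KLF16. A peak with GATA and AP-1 together was found in 38 clusters, and 45 had no AP-1 match in any peak.

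The GENCODE table that defined distal peaks held 0 nuclear tRNA genes, so a peak at a tRNA gene counts as distal under the rule unless another transcript starts near it. The A box and B box pair was found at 254 places in the genome, and 130 of all 28265 peaks lay within 100 bp of one (0.460%). Of these, 87 were distal, and 33 of the 87 were members. Member peaks near a pair were thus 4.32% of members (33 of 764, 95% Wilson interval 3.09 to 6.004), beside 54 of 13588 other distal peaks (0.397%) and 0.202% of peaks in loci of 1 merged peak. The interval treats peaks as independent, although many of the 33 share a cluster. Members were chosen by close spacing, so these shares are a description and were not tested.

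These 33 peaks fell in 12 clusters, which hold 118 of the 764 member peaks (15.4%). They include those at SCAND3, H4C8, HMGN4 and TRIM27, and 8 of the 12 lie between 26 and 29 Mb of chromosome 6. The SCAND3 cluster had 5 peaks near a pair, and the HMGN4, TRIM27 and first ZNF184 clusters had 4 each (chr6:28756739-28785181 for TRIM27 and chr6:27499987-27521724 for ZNF184). A further cluster nearest to TRIM27 (chr6:28907346-28929210) had 0 member peaks near a pair. In the OR1F1 cluster on chromosome 16 there were 3 (chr16:3199756-3225872). The pair is a match of letters and not an annotated gene.

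The order of genes gave a second reading. In the RefSeq table, on assembly GRCh38.p14 and used for neighbours alone, the coding genes on either side of each cluster were looked up and the tRNA genes between them counted. At least 1 tRNA gene stood between the neighbours for 12 of 12 clusters with a pair and for 4 of the 100 others. Between SCAND3 and TRIM27 there were 29, around the H4C8 cluster 13, and between ZNF184 and H2BC13 33. The H2BC13 cluster and a further cluster near ZNF184 lie in that last interval without a pair at a member peak.

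In the 12 clusters, GATA letters were in 34.7% of peaks (41 of 118) and AP-1 letters in 8.47% (10 of 118). In the other 100 clusters they were in 53.7% (347 of 646) and 14.6% (94 of 646), nearer to the other distal peaks. SP letters were also less frequent in the 12 clusters, with 8.47% against 14.1% in the other 100, beside 9.78% of other distal peaks. For SP, the 12 clusters were thus the nearer to the other distal peaks. Median peak width was 408.5 bp in the 12 clusters and 390.5 bp in the other 100, and median span 27.3 and 25.4 kb. Left out, in an alternative chosen after seeing the data, the 12 clusters moved the odds ratio for GATA to 0.698 (0.584 to 0.835, n = 646 member peaks, adjusted p = 0.000453) and for AP-1 to 0.705 (0.557 to 0.892, adjusted p = 0.0131), so both calls held without them. What the clusters do in K562 cells was not tested, and the 112 loci are called here by their rule, clusters of distal peaks.

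**Figure D5:**
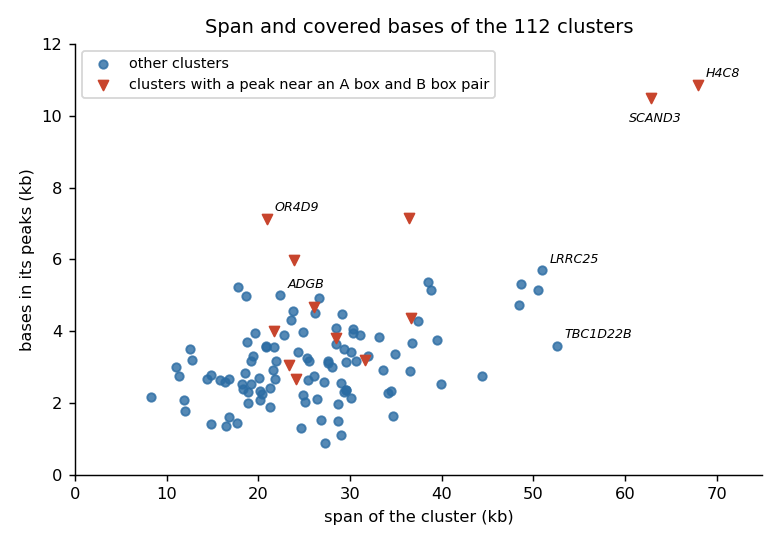
Bases in member peaks (kb) against span (kb) for each of the 112 clusters. Red triangles are the 12 clusters with a member peak within 100 bp of an A box and B box pair, among them the SCAND3 and H4C8 clusters at upper right, and blue points are the other 100.

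Copies of repeated genes can share reads, so unique mapping was measured with 75-base reads cut from the genome over each distal peak. At least 95% of these reads mapped to their own place in 646 member peaks (84.6%) and in 87.2% of other distal peaks. In the 12 clusters with a pair this held for 88 of 118 peaks (74.6%), against 86.4% in the other clusters, and for 26 of the 33 peaks at a pair itself. The FCGR2B and FCGR2C neighbourhood, a duplicated stretch of chromosome 1, had a median of 71.2% unique reads per peak in its cluster of 9 peaks. With peaks of unique reads alone, the odds ratio for GATA was 0.616 (0.511 to 0.743) and for AP-1 0.652 (0.516 to 0.825). The SP call did not hold there (odds ratio 1.37, n = 646, adjusted p = 0.120).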

How the data were processed

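K562 cells gave 3 ChIP libraries for SMARCA4 and 3 inputs, sequenced as single-end reads of 75 bases. Per the study's methods, trimming used cutadapt 1.16, alignment BWA 0.7.15 on hg19, and Picard 2.14.0 with SAMtools 1.6 took out duplicates. The authors called peaks with MACS2 2.1.1 (q under 0.05, against input). They merged the peaks of replicates with bedtools 2.26.0 and kept those that overlapped in 2 of 3. The deposited starts and ends were used as given.

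Members followed the rule in the report, with GENCODE starts on hg19 (254376 transcripts). Clusters were ranked by merged peaks, then covered bases, then span. Of the first 15, 14 were named (1 cluster and some sequences are not reported here), with 4 of the 5 of most covered bases, the 3 longest, that of the widest peak and those at list genes. A gene was at a cluster if it overlapped the span or had the nearest coding start. The members and lists were chosen with earlier results of these data known. Fits used statsmodels 0.14.6 and were tested on simulated data. Reads were mapped with minimap2 2.31-r1302 (quality at least 10, a read every 25 bases). Alternatives varied the distances, merging, minimum size, window, covariates and comparison peaks.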

Additional observations from a re-analysis of the deposited data

How the results depend on the processing

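Of 175 alternative values for motifs and GC content, 131 kept direction and side of the threshold, 19 kept the direction alone and 25 turned; of those 25, 10 were for ETS, 7 for RUNX, 3 each for the G-quadruplex motif and GC content, and 1 each for KLF and SP. Stitching at 5 kb gave 12 clusters, 80 member peaks and 28.7% of them inside coding genes, with odds ratios of 0.753 for GATA, 0.424 for the E-box (now past the threshold) and 0.866 for SP and 0.811 for KLF, which turned below 1; GC content turned to -1.25 points. Stitching at 20 kb gave 219 clusters, 1589 peaks and 49.3% inside genes, and brought KLF (1.21) and GC content (1.39 points) past the threshold. Without merging there were 203 clusters with 1252 peaks, and KLF (1.31), CTCF (0.550), the G-quadruplex motif (1.43) and GC content (1.45 points) passed. With 2.5 kb from transcript starts, 61 clusters with 410 peaks remained, 38.5% inside genes, and SP (1.26) no longer passed. With starts of protein-coding transcripts alone there were 1181 member peaks, and KLF (1.24) and GC content (1.54 points) passed. A minimum of 8 merged peaks left 12 clusters with 138 peaks, 21.0% inside genes, and GATA (0.652), AP-1 (0.799), their combination (0.792) and SP (1.10) no longer passed, while the G-quadruplex motif (0.739) and GC content (-1.13 points) turned; fewer members enter that fit. With peaks of at least 200 bp, 488 members had a median width of 463.5 bp, as the limit removes narrow peaks. Against peaks that stitch to no other, CTCF passed (0.470). SP did not pass over whole peaks with width as covariate (1.31). Other causes were not tested.

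Alternatives chosen after seeing the data gave 47.8% of members inside genes without clusters with an A box and B box pair, 47.7% without 26 to 29 Mb of chromosome 6, where KLF passed (1.26), and no SP call with unique peaks (1.37).

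No paired analysis was possible because the list used here pools the 3 replicates, and no replicate was left out; data per replicate were not used here. Peak heights were not in the list, so weak and strong peaks counted alike. The number of clusters depends on the distances set.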
